A study of Mus musculus with 4 samples.

Results

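The 8 genes described here control the activity of the sterol regulatory element-binding proteins (SREBPs) and move cholesterol within and out of cells: *Srebf1*, *Srebf2*, *Scap*, *Insig1*, *Insig2*, *Stard4*, *Abca1* and *Apoe*. They were chosen by name, as the probes of an expression array that carry one of these gene names, which gave 11 probes of the 55681 on the array. All 11 probes passed the filter on dim signals, which kept 27035 probes for 20227 genes. The cells were neural stem/progenitor cells (NSPCs) of Slc:ICR mouse embryos at embryonic day 13.5, grown with EGF and FGF-basic, and were either wild-type or Trp53-/-, that is, without a functional gene for the tumour suppressor p53. In each genotype, cells treated with 20 μM PJ34, an inhibitor of poly(ADP-ribose) polymerases, were compared with untreated control cells. Each of the 4 two-colour arrays paired PJ34-treated RNA, labelled with Cy5, with control RNA of the same genotype, labelled with Cy3, so each genotype had n = 2 arrays from independently prepared RNA. The duration of treatment before RNA extraction is not given in the sources used here, nor is the number of embryos behind an RNA sample. The knockout line descends from Trp53-heterozygous mice. Cy5 marked the treated cells on all 4 arrays, so a dye bias of a probe and an effect of PJ34 cannot be told apart. This also holds where both genotypes moved the same way. Each array lay on its own slide with its own scan, so slide, scan and replicate cannot be told apart.

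On each array, between 21503 and 24536 probes were well above background in the control channel and between 26075 and 27154 in the PJ34 channel. Of the 11 progenitor markers checked, 11 passed the filter on dim signals. So did 8 of 9 neuron, 8 of 8 astrocyte and 9 of 9 oligodendrocyte lineage markers. Fewer passed among microglial (3 of 10), endothelial and mural (3 of 7), fibroblast (1 of 5) and erythroid markers (0 of 5). Passing the filter does not tell progenitors from neurons, astrocytes or oligodendrocytes. *Trp53* itself, read by a probe whose position relative to the deleted part was not determined, had log2 control intensities of 8.28 and 8.51 in wild-type and 7.56 and 7.82 in Trp53-/- cells. The array of Trp53-/- replicate 2 stood apart in sex-linked transcripts, with a log2 ratio of PJ34 over control of 4.22 for the Y-linked *Eif2s3y*, which lay between -0.20 and 0.84 on the other 3 arrays. In control RNA, *Eif2s3y* was well above background on both wild-type arrays (log2 8.96 and 8.47) and on neither Trp53-/- array (6.01 and 6.24). The treated and control RNA of Trp53-/- replicate 2 differed in these transcripts, and results in Trp53-/- cells that depend on this array are therefore also given without it. The median log2 ratio of all genes was 0.03 in both genotypes after loess normalization within each array.

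SREBPs are transcription factors made as precursors in the membrane of the endoplasmic reticulum. When sterols are low, the escort protein Scap carries the precursor to the Golgi apparatus, where proteases release the part that enters the nucleus. When sterols are high, the Insig proteins hold Scap and the precursor back. The SREBP-2 branch, encoded by *Srebf2*, mainly drives cholesterol synthesis and uptake, and the SREBP-1 branch, encoded by *Srebf1*, mainly drives fatty acid synthesis. The liver X receptors (LXRs) respond to oxidised cholesterol and raise genes of cholesterol export such as *Abca1* and *Apoe*, as well as *Srebf1*. In the brain, which makes its own cholesterol, glial cells pass it to neurons in particles that carry apolipoprotein E.

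RefSeq promoters (build GRCm38.p6) were matched to 7 of the 8 genes, not to *Stard4*, with 14 annotated starts. The 250 bases before the start are shown for *Srebf1*, *Srebf2*, *Insig1* and *Abca1*, each 5′ to 3′ along the gene, since these 4 genes stand for both branches and for each direction of response described below. Of the 3 starts of *Srebf1* the one furthest downstream is shown. Capitals mark 3 sets of letters searched on both strands and chosen with these sequences already seen: TCACNCCA, the core of a sterol regulatory element, CACGTG, an E-box, and CCAAT, which reads ATTGG on the other strand.

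Srebf1, chr11:60210472-60210721, minus strand: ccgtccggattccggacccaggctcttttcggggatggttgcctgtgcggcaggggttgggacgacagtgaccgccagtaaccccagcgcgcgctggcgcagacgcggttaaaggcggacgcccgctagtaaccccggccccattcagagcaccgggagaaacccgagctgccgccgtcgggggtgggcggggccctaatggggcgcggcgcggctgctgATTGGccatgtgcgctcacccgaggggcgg
Srebf2, chr15:82147019-82147268, plus strand: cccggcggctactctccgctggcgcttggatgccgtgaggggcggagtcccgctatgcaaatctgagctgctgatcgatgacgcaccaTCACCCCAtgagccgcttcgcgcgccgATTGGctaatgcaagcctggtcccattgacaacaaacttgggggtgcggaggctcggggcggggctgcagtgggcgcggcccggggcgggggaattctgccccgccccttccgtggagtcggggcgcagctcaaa
Insig1, chr5:28071162-28071411, plus strand: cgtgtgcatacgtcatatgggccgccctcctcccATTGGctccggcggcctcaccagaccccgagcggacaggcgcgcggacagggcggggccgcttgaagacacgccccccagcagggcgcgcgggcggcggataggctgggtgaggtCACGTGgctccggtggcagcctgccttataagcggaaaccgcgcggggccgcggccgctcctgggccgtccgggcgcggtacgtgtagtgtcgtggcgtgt
Abca1, chr4:53159896-53160145, minus strand: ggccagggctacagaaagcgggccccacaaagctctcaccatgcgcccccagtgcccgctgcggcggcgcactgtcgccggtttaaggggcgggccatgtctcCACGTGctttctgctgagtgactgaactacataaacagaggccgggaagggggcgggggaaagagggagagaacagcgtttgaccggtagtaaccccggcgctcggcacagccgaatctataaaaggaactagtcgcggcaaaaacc

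The window of *Srebf2* held TCACNCCA with its first base 162 bases before the start and a CCAAT box at 135 bases. The same core was found in a window of *Apoe*, at 213 bases, and in 3.67% of all 32851 RefSeq promoters of this length. The window of *Insig1* held an E-box at 101 bases and a CCAAT box at 216 bases, and that of *Scap* an E-box at 40 bases. An E-box was present in 6.02% and a CCAAT box in 33.8% of all promoters. The window of *Abca1* held an E-box at 147 bases and that of *Srebf1* shown above a CCAAT box at 30 bases. Another start of *Srebf1* had a CCAAT box at 166 bases, and *Insig2* had CCAAT boxes at 136, 46 and 29 bases. Of the 14 windows of these genes, 2 held TCACNCCA, 3 an E-box and 5 a CCAAT box. None of the 3 sets of letters overlapped another in these windows. A match is a description of the sequence and shows no binding.

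*Abca1* and *Apoe* were higher and *Srebf2*, *Insig1* and *Stard4* lower with PJ34 in both genotypes, by limma with Storey's *q* below 0.05 on loess-normalized ratios (the latter 3 turned positive in Trp53-/- cells when each array was only centred on its median). In wild-type NSPCs 7 of the 8 genes passed this threshold, where 24.0% of all 20227 genes did: 4 were higher (13.2% of all genes) and 3 lower (10.8%). In Trp53-/- NSPCs 6 of 8 passed it (22.4%), 3 higher (12.3%) and 3 lower (10.2%). The call of *Apoe* there rests on replicate 2, with a log2 ratio of 0.56 against 0.16 on replicate 1. Those of *Srebf1*, *Srebf2*, *Insig1* and *Stard4* there were each lost when at least 1 array was left out. With the scanner software's ratios, *Abca1* alone still passed in Trp53-/- cells. None of the 8 reached the criteria of the study's methods, which also ask for more than 2-fold, in wild-type (0.499% of all genes) or in Trp53-/- cells (0.361%). Under alternatives *Abca1* did, in wild-type with a background offset of 16, with the scanner software's ratios and without wild-type replicate 2, and in Trp53-/- cells with the scanner software's ratios, and median centring of whole arrays put 4 of the 8 genes past them in each genotype (centring on the kept probes put *Apoe* past them in wild-type). All ratios are given as log2 of PJ34 over control, where 0 is no change, and each gene is read from its brightest probe.

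**Figure D1:**
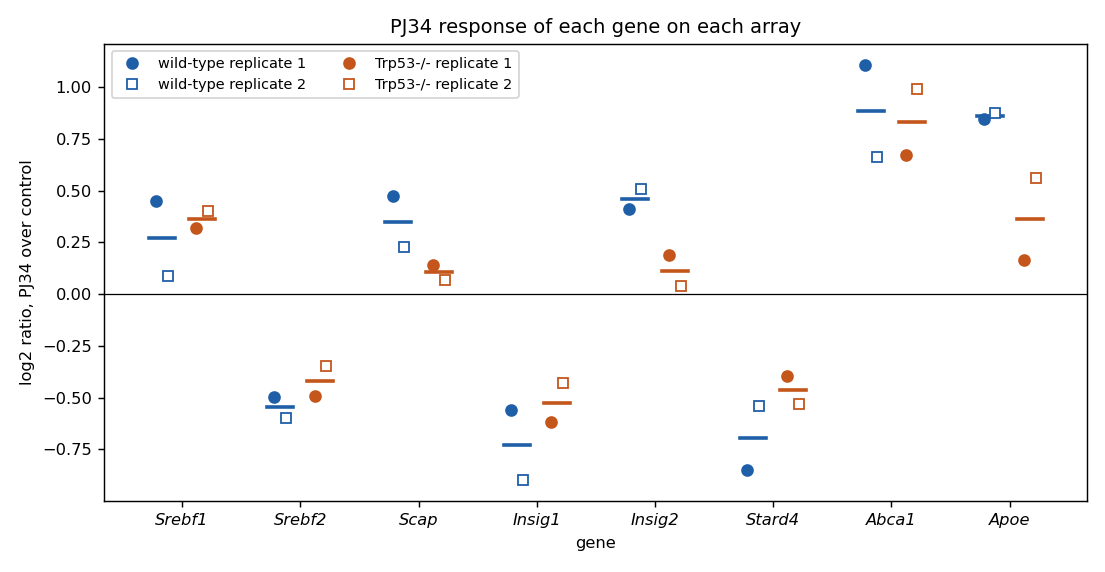
Log2 ratio of PJ34 over control for each of the 8 genes on each of the 4 arrays (points) with the mean of each genotype (bars); wild-type in blue, Trp53-/- in orange. *Srebf2*, *Insig1* and *Stard4* lie below 0 on all 4 arrays and the other 5 genes above 0 on all 4 (median centring of whole arrays, unlike loess, puts these 3 genes above 0 in Trp53-/- cells).

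*Srebf2*, which encodes the precursor of SREBP-2, gave log2 ratios of -0.50 and -0.60 in wild-type replicates 1 and 2 and -0.49 and -0.35 in Trp53-/- replicates 1 and 2. All 4 arrays were below 0, with both wild-type values below both Trp53-/- values by a narrow margin. It fell by 31.6% in wild-type (log2 -0.55 ± 0.070, SD, n = 2; limma *q* = 0.00166) and fell by 25.3% in Trp53-/- cells (-0.42 ± 0.10; *q* = 0.00714; without Trp53-/- replicate 1, *q* = 0.086). Its probe lies at chr15:82034765-82034824 of mm9, in the gene as the array's design names it. A second, dimmer probe at chr15:82030068-82030127 gave -0.31, 0.07, -0.05 and -0.24 in the same order of arrays. That probe did not pass the threshold in either genotype (*q* = 0.27 and 0.21), so the decrease of *Srebf2* rests on 1 of its 2 probes. The mean of both probes was -0.33 in wild-type (*q* = 0.013) and -0.28 in Trp53-/- cells (*q* = 0.024).

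*Srebf1*, which encodes the SREBP-1 precursors, had ratios (log2) of 0.45 and 0.09 on the wild-type arrays and 0.32 and 0.40 in Trp53-/- cells. All 4 arrays were above 0, and the Trp53-/- values lay between those of wild-type. The mean in wild-type was 0.27 ± 0.26 and did not pass the threshold (limma *q* = 0.057; without wild-type replicate 2, which had the lower ratio, *q* = 0.034). The mean in Trp53-/- cells was 1.29-fold (0.36 ± 0.058; *q* = 0.022), a call that was lost when either Trp53-/- array was left out (*q* = 0.068 without replicate 1 and 0.188 without replicate 2). The probe, at chr11:60012664-60012723 of mm9, is not stated to tell the SREBP-1a and SREBP-1c transcripts apart.

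*Scap*, the escort of the SREBPs, had ratios (log2) of 0.47 and 0.23 on the wild-type arrays and 0.14 and 0.07 in Trp53-/- cells (probe at chr9:110287280-110287339 of mm9). Both wild-type arrays were above both Trp53-/- arrays. *Scap* rose 1.27-fold in wild-type (0.35 ± 0.17; limma *q* = 0.0169), and this call was lost without replicate 1 (*q* = 0.23). In Trp53-/- cells the mean was 0.10 ± 0.048 and did not pass the threshold (*q* = 0.25).

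*Insig1*, which retains Scap and is itself a target of the SREBPs, had ratios (log2) of -0.56 and -0.90 on the wild-type arrays and -0.62 and -0.43 in Trp53-/- cells (chr5:28404246-28404305 of mm9). All 4 arrays were below 0 and the genotypes overlapped. It fell by 39.6% in wild-type (-0.73 ± 0.24; limma *q* = 0.000797) and fell by 30.5% in Trp53-/- cells (-0.52 ± 0.13; *q* = 0.00524; without Trp53-/- replicate 1, *q* = 0.053). *Insig2*, its paralogue, which SREBPs do not induce in the same way, had 0.41 and 0.51 in wild-type and 0.19 and 0.04 in Trp53-/- cells (chr1:123201085-123201144 of mm9). Both wild-type arrays were above both Trp53-/- arrays. *Insig2* rose 1.38-fold in wild-type (0.46 ± 0.069; *q* = 0.00409; without replicate 2, *q* = 0.051) and had 0.11 ± 0.11 in Trp53-/- cells (*q* = 0.22). A second probe of *Insig2*, at chr1:123202133-123202192, gave 0.06, 0.22, 0.11 and -0.34 in the order of arrays above and did not pass the threshold in either genotype, so the rise of *Insig2* rests on 1 of its 2 probes. In wild-type cells the paralogues thus moved in opposite directions, *Insig1* down and *Insig2* up.

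*Stard4* encodes a soluble carrier of cholesterol between membranes and is a known target of SREBP-2. Its brightest probe gave -0.85 and -0.54 on the log2 scale in wild-type and -0.40 and -0.53 in Trp53-/- cells. All 4 arrays were below 0, with both wild-type values below both Trp53-/- values by a narrow margin. *Stard4* fell by 38.2% in wild-type (-0.69 ± 0.22; limma *q* = 0.000829) and fell by 27.5% in Trp53-/- cells (-0.46 ± 0.096; *q* = 0.00744; without Trp53-/- replicate 2, *q* = 0.10). A second probe, which spans an intron, gave -0.54, -0.54, -0.39 and -0.66, and passed the threshold in both genotypes (*q* = 0.00236 and 0.00344). The probes of *Stard4* therefore gave the same direction and similar sizes.

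*Abca1*, the transporter that loads cholesterol onto apolipoproteins at the cell surface, had 1.11 and 0.66 in wild-type and 0.67 and 0.99 in Trp53-/- cells (chr4:53043944-53044003 of mm9). All 4 arrays were above 0 and the genotypes overlapped. It rose 1.85-fold in wild-type (0.88 ± 0.31; limma *q* = 0.000585) and 1.78-fold in Trp53-/- cells (0.83 ± 0.23; *q* = 0.00135). No array left out in turn removed a call of *Abca1* in either genotype, and its mean then ranged from 0.66 to 1.11 in wild-type and from 0.67 to 0.99 in Trp53-/- cells. The scanner software's ratios gave a log2 of 1.35 (limma *q* = 0.039) in wild-type and 1.11 (*q* = 0.044) in Trp53-/- cells, and median centring gave 1.26 and 1.41.

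*Apoe*, the main apolipoprotein of the brain, was printed in 10 spots per array (chr7:20281732-20281791 of mm9) and had ratios (log2) of 0.84 and 0.87 on the wild-type arrays and 0.16 and 0.56 in Trp53-/- cells. All 4 arrays were above 0, and both wild-type arrays were above both Trp53-/- arrays. *Apoe* rose 1.81-fold in wild-type (0.86 ± 0.021; limma *q* = 0.000393) and 1.29-fold in Trp53-/- cells (0.36 ± 0.28; *q* = 0.0239). The call in Trp53-/- cells rests on replicate 2, without which the value was 0.16 (*q* = 0.42). *Apoe* is abundant in astrocytes and microglia. With PJ34, the log2 of the summed level of 8 astrocyte markers went from 15.04 and 15.13 to 14.59 and 14.94 in wild-type and from 15.34 and 15.25 to 15.30 and 15.59 in Trp53-/- cells. That sum was lower with PJ34 in both wild-type cultures and in Trp53-/- replicate 1 and higher in Trp53-/- replicate 2. *Aldoc* made up most of it, with control levels of 14.82, 14.89, 15.14 and 15.02 and log2 ratios of -0.58, -0.23, -0.07 and 0.31. Of the 8 markers, 1 passed as higher and 1 as lower in wild-type (median 0.02, with 13.2% and 10.8% of all genes). In Trp53-/- cells 4 passed as higher and 1 as lower (median 0.25, with 12.3% and 10.2% of all genes). *Apoe* was higher on all 4 arrays. The sum of the 3 measured microglia and macrophage markers went from 12.54 and 12.79 to 12.71 and 13.00 in wild-type and from 12.08 and 11.86 to 12.18 and 11.93 in Trp53-/- cells, higher on all 4 arrays, with 0 of the 3 past the threshold. The part of these cells in the response of *Apoe* was not tested. In bulk RNA, fewer cells of a type and less RNA per cell cannot be told apart.

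**Figure D2:**
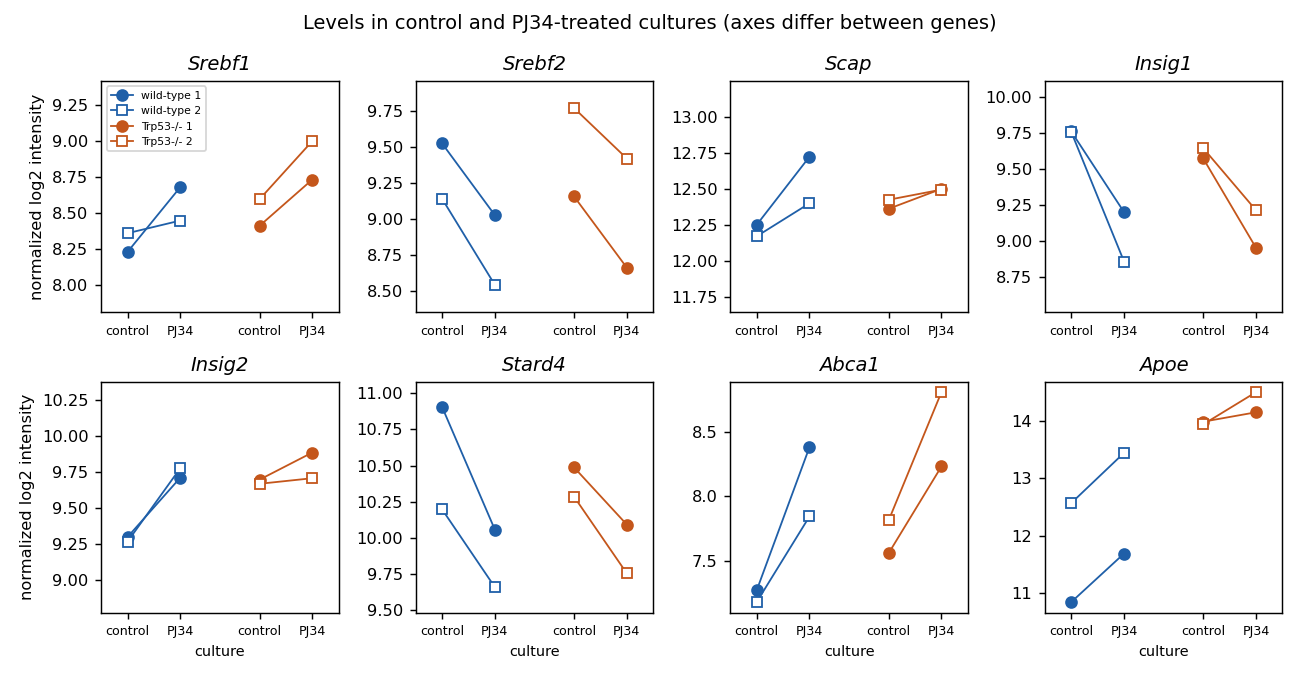
Normalized log2 intensity of each gene in the control and the PJ34-treated culture of each array, joined by a line; each panel has its own vertical axis, and intensities of different probes cannot be compared. Lines of *Srebf2*, *Insig1* and *Stard4* slope down and the others up on all 4 arrays, and the control levels of *Apoe* are 10.84 and 12.56 in wild-type and 13.98 and 13.93 in Trp53-/- cells.

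The direction of *Srebf2*, *Insig1* and *Stard4* depends on how dye bias is removed. Loess, used here, removes a dye bias that varies with intensity. Median centring, which shifts each array by 1 value, gave a median over all genes of 0.46 in wild-type and 0.63 in Trp53-/- cells, and 13638 and 15263 of the 20227 genes then passed the threshold. On that scale the 3 genes had 0.32, 0.23 and 0.35 in Trp53-/- cells and -0.01, -0.16 and -0.10 in wild-type. Relative to the median of all genes they still lay lower, at -0.31, -0.40 and -0.28 in Trp53-/- and -0.47, -0.62 and -0.55 in wild-type cells. When the arrays were centred on the kept probes only, an alternative chosen after seeing the data, the 3 genes had -0.25, -0.35 and -0.22 in Trp53-/- and -0.43, -0.58 and -0.52 in wild-type cells. With the scanner software's own ratios the directions of all 8 genes were those given above, but *Scap* (*q* = 0.088) and *Insig2* (0.052) in wild-type and *Srebf1* (0.099), *Srebf2* (0.065), *Insig1* (0.069), *Stard4* (0.066) and *Apoe* (0.11) in Trp53-/- cells no longer passed in limma. With a background offset of 16, *Srebf1* (0.052) and *Apoe* (0.054) in Trp53-/- cells did not pass.

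**Figure D3:**
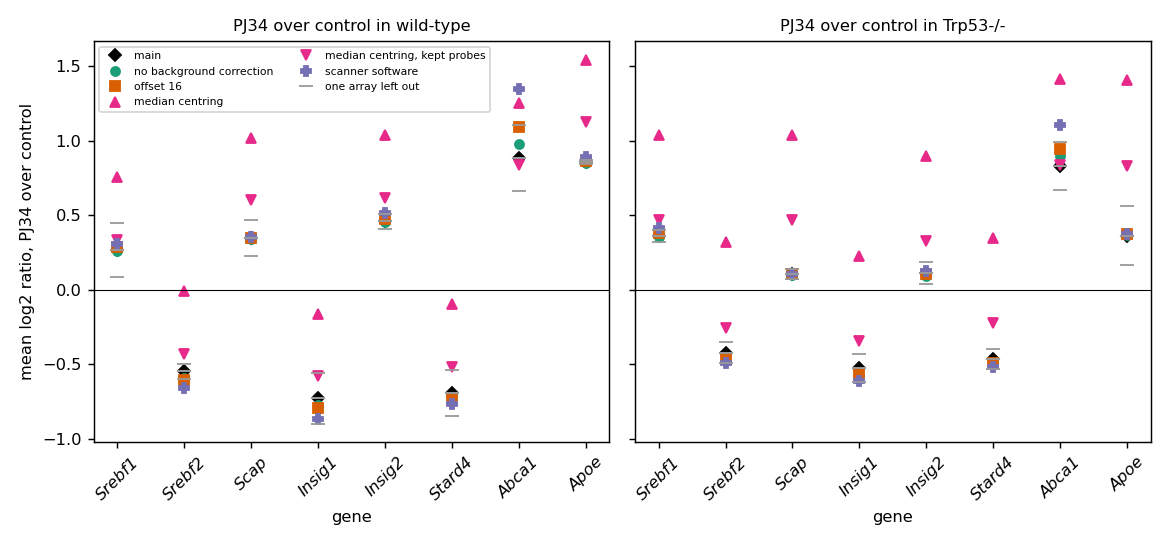
Mean log2 ratio of PJ34 over control of each gene under the processing used here (black diamonds) and its alternatives, in wild-type (left) and Trp53-/- cells (right). Median centring of whole arrays (upward triangles) lies above the other settings for every gene but *Abca1* in wild-type, and it alone of those plotted places *Srebf2*, *Insig1* and *Stard4* above 0 in Trp53-/- cells.

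The other genes of the pathway were read from 5 lists that hold none of the 8 genes. Of 22 listed genes of cholesterol synthesis and uptake, targets of SREBP-2, 21 were measured. Of these, 19 fell in wild-type NSPCs and 16 in Trp53-/- NSPCs (limma, *q* below 0.05), against 10.8% and 10.2% of all genes. None of the 21 rose. The median log2 ratio of the list was -0.77 in wild-type and -0.58 in Trp53-/- cells, against 0.03 over all genes in both. Large decreases in wild-type were those of *Lss*, the lanosterol synthase, with -1.29 and -1.32, *Mvd*, the mevalonate decarboxylase, with -1.23 and -1.25, and *Dhcr7*, which makes cholesterol in the last step of 1 branch, with -0.91 and -1.40. In Trp53-/- cells large decreases were those of *Mvd* with -1.11 and -0.76, *Cyp51* with -0.56 and -0.996, and *Idi1* with -0.79 and -0.75. In Trp53-/- cells the median was -0.53 without replicate 1 and -0.65 without replicate 2. The scanner software's ratios left 16 of the 21 lower in wild-type and 6 in Trp53-/- cells. With median centring of whole arrays, 4 passed as lower and 2 as higher in wild-type and 0 as lower and 12 as higher in Trp53-/- cells, where the median of the list was 0.37, below the 0.63 of all genes, and 18 of 21 lay below that of all genes.

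Of 15 genes of fatty acid synthesis, targets of SREBP-1, 8 fell in wild-type cells (median -0.37), where 10.8% of all genes did. In Trp53-/- cells 6 fell and 1 rose (median -0.13), where 10.2% of all genes fell and 12.3% rose. *Mid1ip1*, which promotes the activity of acetyl-CoA carboxylase, fell the most of the list, with -1.001 and -0.92 in wild-type and -0.86 and -0.74 in Trp53-/- cells. The gene that rose was *Fasn*, the fatty acid synthase, with 0.29 and 0.59 in Trp53-/- cells (limma *q* = 0.0082) against 0.06 on both wild-type arrays. Without wild-type replicate 2, 5 passed as lower in wild-type. In Trp53-/- cells, 2 passed as lower without replicate 1, and without replicate 2, 1 passed as lower and 0 as higher. With median centring of whole arrays the median was 0.22 in wild-type and 0.74 in Trp53-/- cells, where 7 of 15 lay below the median of all genes, and 6 passed as higher and 1 as lower in wild-type and 13 and 1 in Trp53-/- cells. The scanner software's ratios left 5 lower in wild-type and 2 lower and 0 higher in Trp53-/- cells.

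Of 12 genes listed as LXR and its targets, 5 rose in wild-type, where 13.2% of all genes did. In Trp53-/- cells 4 rose and 1 fell, where 12.3% of all genes rose and 10.2% fell. *Nr1h3*, which encodes LXRα, had 0.34 and 0.46 in wild-type and 0.42 and 0.43 in Trp53-/- cells, and *Smpdl3a*, a phosphodiesterase, had 0.43, 0.64, 0.49 and 0.63. Both genes passed in both genotypes. *Pltp* and *Abcg1*, which act in lipid transfer and cholesterol export, rose in wild-type with means of 0.48 and 0.43. *Lpl*, the lipoprotein lipase, rose in Trp53-/- cells with 1.16 and 0.86. The gene that fell in Trp53-/- cells was *Abca7*, a relative of *Abca1*, with -0.25 and -0.47. Medians were 0.21 in wild-type and 0.10 in Trp53-/- cells, and 10 and 7 of 12 lay above the median of all genes with median centring. The scanner software's ratios left 2 higher in each genotype and 0 lower. Without wild-type replicate 1, 3 genes passed in wild-type, and without Trp53-/- replicate 2, 2 passed as higher and 0 as lower in Trp53-/- cells.

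Of 14 genes of SREBP processing and sterol-regulated degradation, 2 rose and 1 fell in wild-type (median 0.12) and 1 rose in Trp53-/- cells (median -0.0017), no larger shares than the 24.0% and 22.4% of all genes. *Erlin2*, which binds the SREBP-Scap-Insig complex, rose in both, with 0.32 and 0.19 in wild-type and 0.29 and 0.39 in Trp53-/- cells. *Erlin1* fell (-0.27) in wild-type. Leaving out either wild-type array removed the 3 calls in wild-type, and leaving out either Trp53-/- array removed the call in Trp53-/- cells. The calls in wild-type were also lost with Benjamini-Hochberg adjustment, an offset of 16, the scanner software's ratios, the replicate block and no filter on dim probes. With median centring all 14 genes passed as higher in both genotypes, and *Erlin1* had 0.34 in wild-type.

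Of 25 genes of cholesterol transport, 4 rose and 3 fell in wild-type and 1 rose and 5 fell in Trp53-/- cells, with medians of -0.03 and -0.06, shares near the 24.0% and 22.4% of all genes. *Clu*, which encodes the lipid-binding chaperone clusterin, rose in both, with 0.80 and 0.54 in wild-type and 0.22 and 0.63 in Trp53-/- cells. *Lrp8*, a receptor of apolipoprotein E, and *Scarb1*, a receptor of high-density lipoprotein, fell in wild-type with means of -0.44 and -0.34. *Gramd1a*, which carries cholesterol from the plasma membrane inward, fell in Trp53-/- cells with -0.59 and -0.99, and *Lipa*, the lysosomal lipase, with -0.39 and -0.36. *Vldlr*, another lipoprotein receptor, rose in wild-type with 0.79 and 0.26 and fell in Trp53-/- cells with -0.27 and -0.50. In wild-type, 1 passed as higher and 1 as lower without replicate 1, and 4 and 1 without replicate 2. In Trp53-/- cells it was 1 and 2 without replicate 1, and 0 and 1 without replicate 2. With median centring 17 genes passed as higher in wild-type and 20 in Trp53-/- cells, with 0 lower, and *Lrp8*, *Scarb1*, *Gramd1a* and *Lipa* then had 0.03, 0.30, 0.08 and 0.27 in the genotypes named above. The scanner software's ratios left 1 lower in wild-type, *Lrp8*, and 0 in Trp53-/- cells.

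**Figure D4:**
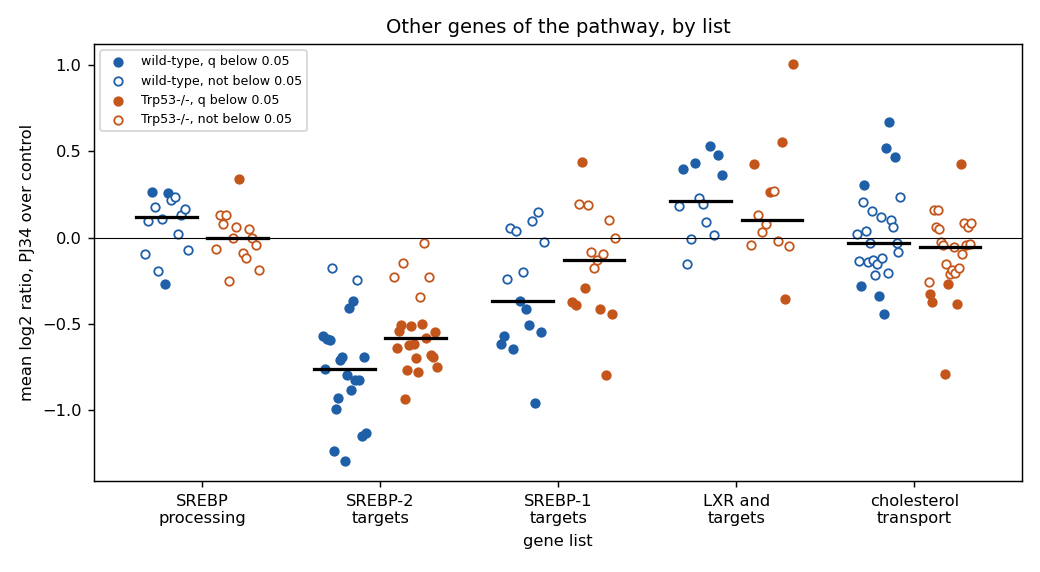
Mean log2 ratio of PJ34 over control of each measured gene of the 5 lists (points; filled where *q* is below 0.05) with the median of each list (black bars), wild-type in blue and Trp53-/- in orange. All 21 SREBP-2 targets lie below 0 in both genotypes by the loess values, while with median centring of whole arrays their median is 0.37 in Trp53-/- cells.

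Whether the response differed between the genotypes was tested as the wild-type minus the Trp53-/- mean. A dye bias of a probe cancels there only where it is equal on the arrays of both genotypes. Control RNA of the genotypes differed in the Y-linked *Eif2s3y*, so sex and genotype cannot be told apart in this test either. None of the 8 genes passed *q* below 0.05 in limma, where 1.63% of all genes did, and 2 of them, *Apoe* and *Insig2*, had an unadjusted *p* below 0.05. The difference was 0.50 for *Apoe* (95% confidence interval 0.16 to 0.83, limma *q* = 0.125) and 0.35 for *Insig2* (0.058 to 0.64, *q* = 0.195), higher in wild-type for both. With median centring both differences were 0.14, and that of *Apoe* was 0.30 without Trp53-/- replicate 1 and 0.70 without Trp53-/- replicate 2 (*q* = 0.052). *Scap* had 0.25 (-0.056 to 0.55), *Stard4* -0.23 (-0.55 to 0.091) and *Insig1* -0.20 (-0.54 to 0.13). *Srebf2*, *Srebf1* and *Abca1* had -0.13 (-0.41 to 0.16), -0.09 (-0.42 to 0.24) and 0.05 (-0.33 to 0.44). The *q* of these 6 genes lay between 0.35 and 0.70. Their intervals hold 0 and also differences of the size of that of *Insig2*, so the data show neither a difference nor its absence. The 21 SREBP-2 targets had a median difference of -0.20 against -0.0067 over all genes. All 21 differences were below 0, the lowest at -0.60, and 0 of them passed the threshold. These genes were read from the same arrays, so their shared direction is not 21 separate results.

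**Figure D5:**
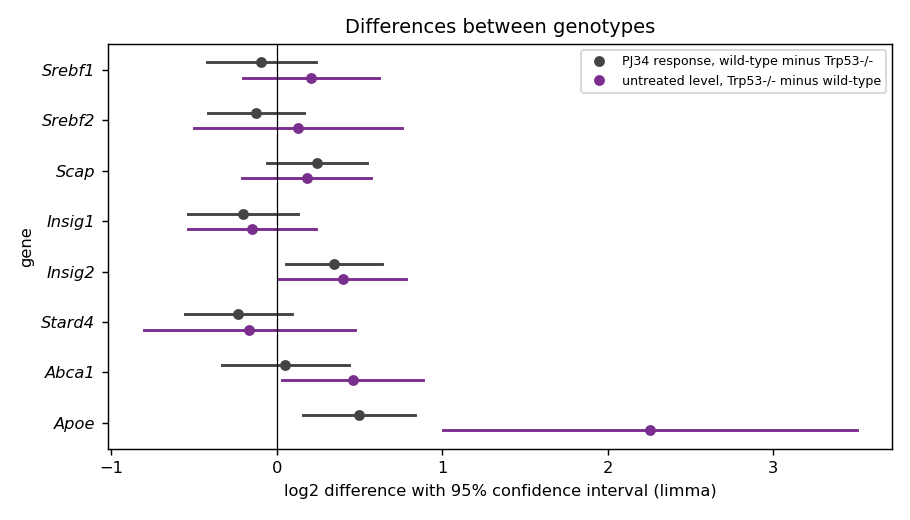
Log2 differences between genotypes with 95% confidence intervals from limma for the 8 genes: the PJ34 response in wild-type minus that in Trp53-/- cells (grey) and the untreated level in Trp53-/- minus that in wild-type cells (purple). The intervals of the response exclude 0 for *Insig2* and *Apoe* before adjustment, and the untreated difference of *Apoe* spans 1.00 to 3.51.

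In untreated cells 1 of the 8 genes differed between genotypes by limma with *q* below 0.05, against 6.64% of all genes. The Y-linked *Eif2s3y* was well above background in control RNA of both wild-type arrays and of neither Trp53-/- array. Sex and genotype therefore cannot be told apart in untreated cells, for *Apoe* and for the genes and markers below. *Apoe* had log2 intensities of 10.84 and 12.56 in wild-type and 13.98 and 13.93 in Trp53-/- cells. The genotypes did not overlap, but the wild-type cultures were 1.72 apart while those of Trp53-/- were 0.05 apart. The level was higher in Trp53-/- cells by 2.25 (95% confidence interval 1.00 to 3.51; *q* = 0.0462), and the difference was 3.12 without wild-type replicate 2 and 1.39 without wild-type replicate 1. The call was lost with Benjamini-Hochberg adjustment (*q* = 0.080). It was also lost without either Trp53-/- array, as was the call of every other gene, so that loss is not particular to *Apoe*.

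Some markers of glia differed between untreated cells as *Apoe* did. Of 8 astrocyte markers, 3 passed as higher in Trp53-/- cells and 0 as lower (6.64% of all genes passed), and the means of 5 were above and of 3 below those of wild-type. Among the 3 were *Gfap* with 6.44 and 7.23 in wild-type against 9.22 and 9.21, and *S100b* with 7.87 and 8.04 against 9.73 and 9.97. The summed log2 level of the 8, most of it *Aldoc*, lay between 15.04 and 15.13 in wild-type and between 15.25 and 15.34 in Trp53-/- cells. Of 9 oligodendrocyte lineage markers 3 passed as higher and 0 as lower, with 6 means above and 3 below, and their sum lay at 15.33 and 15.40 against 15.46 and 15.67. Of 10 microglia and macrophage markers 3 were measured, all lower in Trp53-/- cells without passing the threshold, with a sum of 12.54 and 12.79 in wild-type and 12.08 and 11.86 in Trp53-/- cells, and *Aif1*, *Cx3cr1*, *Trem2*, *P2ry12* and *Tyrobp* did not pass the filter on dim signals. The calls of *Gfap* and *S100b* were lost without either Trp53-/- array, as were those of all genes. The part of these cell types in the level of *Apoe* was not tested.

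*Insig2* had untreated log2 intensities of 9.30 and 9.27 in wild-type and 9.70 and 9.67 in Trp53-/- cells, and *Abca1* had 7.27 and 7.18 against 7.56 and 7.81. In both genes each Trp53-/- culture was above each wild-type culture, by a mean of 0.40 for *Insig2* (95% confidence interval 0.016 to 0.78) and 0.46 for *Abca1* (0.035 to 0.88), without passing the threshold (limma *q* = 0.12 for both). The untreated levels of *Srebf1*, *Scap*, *Srebf2*, *Insig1* and *Stard4* differed by 0.21, 0.18, 0.13, -0.15 and -0.17, Trp53-/- minus wild-type, with *q* between 0.30 and 0.47. Replicate cultures of *Stard4* were 0.71 apart in wild-type (0.27 by its second probe). Those of *Srebf2* were 0.61 apart in Trp53-/- cells. These gaps were larger than the difference between genotypes. Among the listed genes, *Clu* (1.65, *q* = 0.0242) and *Nceh1*, a cholesteryl ester hydrolase (0.69, *q* = 0.0491), were higher in untreated Trp53-/- cells, and 0 of the SREBP-2 and 0 of the SREBP-1 targets differed. Both calls were lost without either Trp53-/- array, as were those of all genes. Both were also lost with the scanner software's values, and that of *Nceh1* under other alternatives, Benjamini-Hochberg adjustment (*q* = 0.085) among them. The count of all genes past the threshold ranged from 0 to 9653 with an array left out in turn.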

How the data were processed

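RNA of PJ34-treated (Cy5) and control (Cy3) NSPCs was hybridized to 4 arrays, 2 per genotype. The authors scanned and extracted them with Agilent Feature Extraction 10.7.3.1. The intensity values the authors deposited are the mean signal of each spot and the median of its local background, uncorrected. The log10 ratios that the authors deposited, which the scanner software had background-subtracted and dye-normalized, served, turned into log2, as an alternative. A table of 4 normalized columns was not used, since their names match no array.

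Background was corrected by normexp (limma 3.58.1, R 4.3.3; offset 50), followed by loess normalization of the ratios within each array. Control spots and 228 to 276 outlier spots per array were left out and spots of a probe averaged. A probe was kept when, on both arrays of a genotype, at least 1 channel was well above background (48.6%), and a gene was read from its brightest kept probe. Symbols came from RefSeq for 47.2% of probes. limma was fitted over all 4 arrays with a mean per genotype (2 residual degrees of freedom, 10.5 after moderation; 6.18 for untreated levels), with Storey's *q*. Untreated levels are Cy3 log2 intensities after Aquantile between arrays. The number of arrays limits the precision. On simulated ratios of 27029 probes, 100 were changed by log2 of 1 and 100 by 2. There the wild-type contrast recovered 69 and 98 and the difference between genotypes 31 and 83. For untreated levels 0 and 32 were recovered, with 0 false calls in each. In the data a larger share of genes passed, 24.0% in wild-type and 22.4% in Trp53-/- cells. The recovery and the false calls at such shares were not tested.

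The 8 genes, the lists and the motifs were chosen with earlier results of these data known. All 8 genes are named; of each list, at most 4 per comparison are, those with the largest changes past the threshold that moved the same way on both arrays, and *Fasn* and *Abca7* fall under this rule too. Some genes that this rule names are not reported here. Alternatives were no background correction, offset 16, median centring, scanner values, scaling between arrays, no and a strict filter, a variance trend, Benjamini-Hochberg, the mean of a gene's probes, each genotype alone, the replicate number as a block, and each array left out.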

Additional observations from a re-analysis of the deposited data

Results flagged for a closer look

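*Vldlr*, a receptor of lipoproteins that carry apolipoprotein E, responded to PJ34 differently in the 2 genotypes by the test of the difference itself. Its log2 ratio was 0.79 and 0.26 in wild-type and -0.27 and -0.50 in Trp53-/- cells, a difference of 0.90 (limma *q* = 0.033), with each wild-type array above each Trp53-/- array. It was the 1 gene of the 25 in the list of cholesterol transport to pass this test, where 1.63% of all genes passed. The difference stayed above 0 under every alternative, but no longer passed without background correction (*q* = 0.067), with an offset of 16 (0.15), median centring (0.67 on the log2 scale, *q* = 0.39), the scanner software's ratios (0.30), the mean of its probes (0.057), without wild-type replicate 1 (0.64, *q* = 0.069) and without Trp53-/- replicate 2 (0.79, *q* = 0.057). Sex and genotype cannot be told apart in this difference. No group had enough arrays to test for outlying samples.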

How the results depend on the processing

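Over 520 comparisons of a value of one of the 8 genes with the same value under an alternative, 464 kept direction and side of the threshold, 17 gained and 26 lost the threshold, and 13 changed sign. Median centring left 0 of 8 genes lower in either genotype, 7 higher in Trp53-/- cells, and 4 (wild-type) and 0 (Trp53-/-) SREBP-2 targets lower; it turned *Srebf2*, *Insig1* and *Stard4* in Trp53-/- cells to 0.32, 0.23 and 0.35, and the genotype difference of *Scap* and *Abca1* to -0.020 and -0.16. Centring on kept probes gave 5 higher in Trp53-/- cells and -0.0055 for the difference of *Abca1*. The scanner values left 2 higher in wild-type, 1 higher and 0 lower in Trp53-/- cells, and 6 SREBP-2 targets lower there; with them, with Cy3 quantile normalization alone, without a filter and with Benjamini-Hochberg adjustment, 0 of 8 were higher in untreated Trp53-/- cells. An offset of 16 left 1 higher in Trp53-/- cells, and the mean of its probes put *Insig2* there at -0.00087. The cause was not tested.

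With an array left out in turn, the genes past the threshold in Trp53-/- cells ranged from 1 to 3 higher (1 without replicate 2, *Abca1*) and from 1 to 3 lower (1 without replicate 1, *Stard4*), those in wild-type from 3 to 5 higher with 3 lower throughout, and those in untreated cells from 0 to 3 higher (0 without either Trp53-/- array, 3 without either wild-type array) and from 0 to 1 lower (*Stard4*, without wild-type replicate 2). SREBP-2 targets lower ranged from 17 to 19 in wild-type and from 13 to 17 in Trp53-/- cells. The genotype difference of *Abca1* ranged from -0.17 (without wild-type replicate 1; -0.11 without Trp53-/- replicate 1) to 0.28, and that of *Srebf1* from -0.27 to 0.087 (without wild-type replicate 2). The untreated difference of *Stard4* ranged from -0.52 to 0.19 (without wild-type replicate 1), and that of *Srebf2* from -0.18 (without Trp53-/- replicate 2; -0.061 without wild-type replicate 2) to 0.44. A genotype left with 1 array is assumed to vary like the other.

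The replicate block changed no call of the 8 genes, which stayed at 4 higher and 3 lower in wild-type and 3 and 3 in Trp53-/- cells, while all genes past it in untreated cells went from 1344 to 2662. The deviations of same-numbered arrays correlated at -0.169 for ratios and 0.0743 for untreated levels. These values do not show whether same-numbered cultures were prepared together. With the numbers crossed, 988 genes differed in response between genotypes, 0 of the 8 among them, against 392 with the block uncrossed and 329 without a block.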
